A study of Homo sapiens with 6 samples.

Results

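The 10 genes described here, of Wnt signalling and of its target programme around the central vein of the liver, were taken from the deposited expression table by gene symbol: CTNNB1, AXIN2, LGR5, NKD1, RNF43, ZNRF3, TBX3, TCF7L2, LEF1 and GLUL. Of these 10 genes, 9 had values among the 16659 genes of the table, and LGR5 was not analysed here. RNA was measured in HepaRG, a human liver cancer cell line that the labels describe as a hepatic stem cell line. The 3 libraries labelled as a functional knockout of PXR (the pregnane X receptor, a nuclear receptor activated by many drugs and encoded by NR1I2) were compared with 3 wild-type libraries, which the design names as the control. No cells of either group were treated with a drug. The sources used here do not say how the knockout was made, whether its cells are a single clone or how long they were cultured. Nothing in the labels says that libraries came from separate cultures, so p-values measure the spread between these libraries, which may be technical.

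Wnt proteins bind Frizzled receptors and LRP co-receptors, and this stops the destruction complex that otherwise marks β-catenin for breakdown. β-catenin then enters the nucleus and acts with DNA-binding proteins of the TCF/LEF family. Several of the genes switched on in this way encode inhibitors of the same pathway, so they serve both as targets and as feedback. In the liver, Wnt signals from the endothelium of the central vein keep the surrounding hepatocytes in their pericentral state, in which they make glutamine synthetase.

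Depths estimated from the values were 28154914 to 33393110 reads for knockout libraries and 11359209 to 20945994 reads for wild-type libraries, so every knockout library was deeper than every wild-type library. Levels are in scaled CPM, read counts relative to a library size that the authors had scaled. NR1I2 averaged 13.6 ± 0.62 CPM in the knockout and 7.63 ± 0.60 CPM in wild type (SD, n = 3 each), and a level over the whole gene does not check a functional knockout. The limma fit covered 16219 genes, and 79.9% of them passed an adjusted p of 0.05. Calls were 40.3% of tested genes upward and 39.6% downward. Scaling every library to an equal sum shifted the median log2 change of all genes to -0.12, against 0.01 with the deposited scaling. The split of calls became 5346 higher and 7715 lower with equal sums, and 5260 and 7913 with equal sums without small RNA genes, in place of 6534 and 6426.

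The 9 genes did not move in a single direction. CTNNB1, NKD1, RNF43, TCF7L2 and GLUL were higher in the knockout, and AXIN2, ZNRF3, TBX3 and LEF1 were lower. Negative regulators of the pathway thus lay on both sides, as did the TCF/LEF factors. The higher regulators were NKD1, limited as stated below, and RNF43, whose call was lost with both equal-sum scalings. In all 9 the limma adjusted p was under 0.05, where 79.9% of tested genes passed, and the knockout and wild-type values did not overlap, as at 80.8% of tested genes. An adjusted p under 0.05 with a change of at least 2-fold on the log2(scaled CPM + 0.5) scale was seen at 22.7% of tested genes. Among the 9 genes it was seen in 2, NKD1 and ZNRF3. The median absolute log2 change was 0.54 for the 9 genes and 0.47 for all tested genes. NKD1 passed the filter on low values through the knockout libraries alone, so its call was bound to follow, while the other 8 genes were above 1 CPM in all 6 libraries. A lower level in bulk RNA does not tell fewer expressing cells from less RNA per cell.

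**Figure D1:**
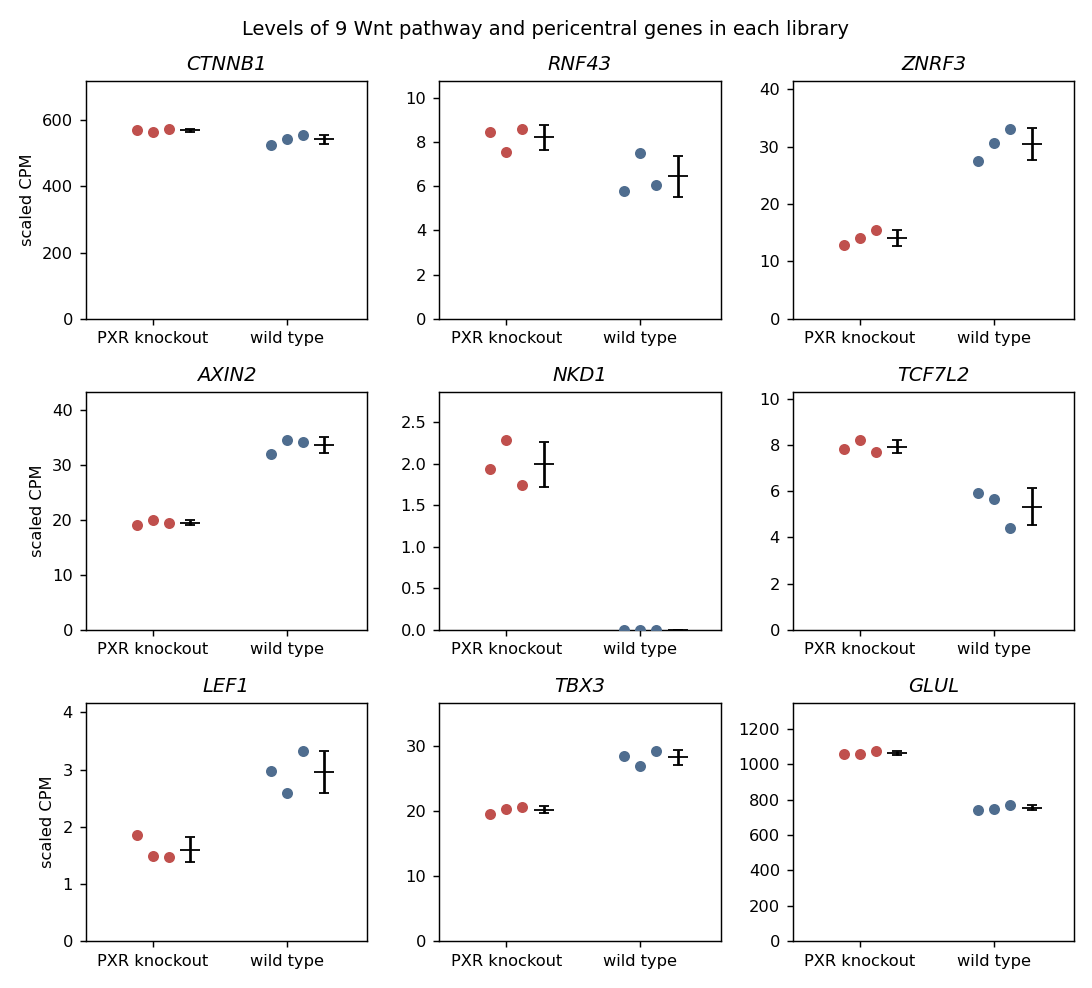
Scaled CPM (linear vertical axes from 0, a different range in each panel) of the 9 genes in the 3 PXR knockout libraries (red, left) and the 3 wild-type libraries (blue, right), with the mean and SD in black. The groups are separate in all panels, by little for CTNNB1 and RNF43, and NKD1 is listed at 0 in all wild-type libraries.

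CTNNB1 (ENSG00000168036.18, chromosome 3, 41194741 to 41260096 in GRCh38, forward strand) encodes β-catenin, the signal carrier of the pathway, which also ties cadherins to the cytoskeleton. Its level was 571, 566 and 575 CPM in knockout libraries 1 to 3 and 527, 545 and 555 CPM in wild-type libraries 1 to 3. The highest wild-type library lay just under the lowest knockout library. The log2 fold change was 0.07 ± 0.026 (SE; limma adjusted p = 0.019), with a 95% interval of 0.02 to 0.13. Its direction depended on scaling. The change was -0.06 with equal sums (limma adjusted p = 0.037) and -0.08 with equal sums without small RNA genes (limma adjusted p = 0.0044), a call as lower in both. With quantile normalization it was -0.03 (limma adjusted p = 0.33). The call was lost without knockout library 3 (adjusted p = 0.06) and without wild-type library 1 (adjusted p = 0.063). The range over the alternatives was -0.08 to 0.39. The gene overlaps ULK4 on the other strand (13.2 CPM in knockout library 1 and 17.1 CPM in wild-type library 1). RNA level says nothing of how much β-catenin protein was stable or nuclear.

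RNF43 and ZNRF3 are related membrane ubiquitin ligases that remove Frizzled receptors from the cell surface. R-spondins, which bind the LGR receptors, clear these ligases and so raise the response to Wnt. RNF43 (ENSG00000108375.12, chromosome 17, 58352500 to 58417595, reverse strand) had 8.46, 7.58 and 8.62 CPM in knockout libraries and 5.77, 7.52 and 6.06 CPM in wild-type libraries. Wild-type library 2 nearly reached the lowest knockout value. It rose by a log2 fold change of 0.33 ± 0.11 (limma adjusted p = 0.012), and the call was lost with equal sums (0.20, adjusted p = 0.094) and with equal sums without small RNA genes (0.19, adjusted p = 0.12). The gene overlaps SUPT4H1 on the same strand. Its estimated reads were whole only in knockout library 3 (277) and wild-type library 1 (70), so its level is uncertain.

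ZNRF3 (ENSG00000183579.15, chromosome 22, 28883592 to 29057487, forward strand) went the other way. It had 12.8, 14.1 and 15.5 CPM in knockout libraries and 27.5, 30.7 and 33.1 CPM in wild-type libraries. Every wild-type value was well above the highest knockout value. On the log2 scale the change was -1.08 ± 0.08 (limma adjusted p = 1.4e-08), and the ratio of means was 0.46. Of the 214 other tested genes within 10 Mb of its start, 84.1% had a negative change, with a median of -0.73. With that median taken out as a fixed number the change of ZNRF3 was -0.35 (limma adjusted p = 0.00076). This p leaves out the spread of the neighbours, of which 31.8% had a lower change than ZNRF3. The part of the surrounding region in this fall was not tested further. The gene overlaps ZNRF3-AS1 on the other strand (3.16 CPM in knockout library 1 and 2.95 CPM in wild-type library 1), and whether counting used the strand is not stated in the labels. Its estimated reads were not whole in any library, so like that of RNF43 its level is uncertain.

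The log2 ratio of RNF43 to ZNRF3, which does not depend on the scaling of libraries apart from the pseudocount of 0.5, was -0.56, -0.86 and -0.81 in knockout libraries and -2.16, -1.96 and -2.36 in wild-type libraries. The difference of the means was 1.41, and the groups did not overlap (exact permutation test, two-sided, p = 0.1, the smallest that 3 libraries against 3 allow). This ratio and another 2, given with their genes, were chosen after the values were seen, and the p adjusted over the 3 ratios was 0.1 for each. In each pair the first gene was higher and the second lower in every knockout library. The separation of the ratios and their p were therefore bound to follow and add nothing to the values of the single genes.

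AXIN2 (ENSG00000168646.13, chromosome 17, 65528563 to 65561647, reverse strand) encodes a scaffold of the destruction complex and is among the most widely used readouts of β-catenin activity. Its level was 19.2, 20.04 and 19.4 CPM in knockout libraries and 32.0, 34.6 and 34.3 CPM in wild-type libraries. The groups lay far apart compared with their SDs of 0.46 in the knockout and 1.43 in wild type. Its log2 fold change was -0.77 ± 0.05 (limma adjusted p = 5.3e-09), a percent change of -42.0%. Genes within 10 Mb had a median change of 0.04, and the fall was -0.75 to -0.92 over all alternatives.

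NKD1 (ENSG00000140807.7, chromosome 16, 50548330 to 50649249, forward strand) encodes a protein that binds Dishevelled, the first relay inside the cell, and restrains the signal; like AXIN2 it is a common Wnt target. Its level was 1.94, 2.29 and 1.75 CPM in knockout libraries, from 63, 61.85 and 56.14 estimated reads. It was listed at 0 in wild-type libraries 1, 2 and 3. The wild-type libraries together would give 0.054 CPM from 3 reads, the limit that a count of 0 allows, which covers counting error only. Its fitted log2 change of 2.31 (limma adjusted p = 4.4e-09) depends on the pseudocount, at 1.58 with 1 and 4.38 with 0.1, and reached 6.14 with voom weights. In all, 50 genes were listed at 0 in every wild-type library and above 1 CPM in every knockout library. AXIN2 and NKD1, both feedback inhibitors, had opposite directions, but NKD1 passed the filter through the knockout alone, so its call was bound to follow.

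TCF7L2 and LEF1 encode DNA-binding partners of β-catenin, and TCF7L2 is the member of that family best known from adult liver. TCF7L2 (ENSG00000148737.17, chromosome 10, 112950250 to 113167678, forward strand) had 7.82, 8.22 and 7.69 CPM in knockout libraries and 5.94, 5.65 and 4.41 CPM in wild-type libraries. All knockout values exceeded all wild-type values, and wild-type library 3 was the lowest. The log2 fold change was 0.54 ± 0.11 (limma adjusted p = 0.00052), and it ran from 0.39 to 0.62 over the alternatives.

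LEF1 (ENSG00000138795.10, chromosome 4, 108047545 to 108168956, reverse strand), which is more often found in progenitor and tumour cells than in hepatocytes, was scarce. It had 1.85, 1.48 and 1.46 CPM in knockout libraries and 2.97, 2.58 and 3.33 CPM in wild-type libraries, from 36 to 74 estimated reads per library. The groups did not overlap, with a gap of less than 1 CPM. Its log2 fold change was -0.72 ± 0.14 (limma adjusted p = 0.00024). The log2 ratio of TCF7L2 to LEF1 was 1.83, 2.14 and 2.06 in knockout libraries and 0.892, 0.995 and 0.358 in wild-type libraries. The difference of means was 1.26 (exact permutation test, two-sided, p = 0.1, the smallest possible and bound to follow).

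TCF7L2 has several annotated starts, and the gene-level values do not tell which was used. Windows of 300 bases around the starts (250 before, 50 after) were found for 5 of the 10 genes in RefSeq on GRCh38.p14, 9 windows in all. They were searched on both strands for the TCF/LEF core CTTTG followed by AT, AA, TT or TA, 4 spellings of 7 letters of which no 2 can share a start. A single window, at an internal start of TCF7L2, held a match, and 13.8% of 35116 windows of all genes did. The half-sites AGTTCA on either strand or AGGTCA on either strand, the letters that nuclear receptors such as PXR bind as pairs, were found in 2 of the 9 windows and in 22.6% of all windows. The 250 bases before the first start of TCF7L2 and before that internal start are shown to set the GC-rich window beside the AT-richer one with the core; neither touches an annotated exon, and capitals mark the core CTTTGTT, whose first base lies 133 bases before the start. The first is chr10:112949997-112950246 and the second chr10:113126383-113126632, both forward strand, with 68% and 42.4% G or C. A match is a description of letters, not of binding.
TCF7L2 first start: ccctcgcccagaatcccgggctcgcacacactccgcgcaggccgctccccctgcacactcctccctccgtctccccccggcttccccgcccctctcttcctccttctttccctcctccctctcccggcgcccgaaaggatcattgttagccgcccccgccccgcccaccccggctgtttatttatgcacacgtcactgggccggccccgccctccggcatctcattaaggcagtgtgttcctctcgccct
TCF7L2 internal start: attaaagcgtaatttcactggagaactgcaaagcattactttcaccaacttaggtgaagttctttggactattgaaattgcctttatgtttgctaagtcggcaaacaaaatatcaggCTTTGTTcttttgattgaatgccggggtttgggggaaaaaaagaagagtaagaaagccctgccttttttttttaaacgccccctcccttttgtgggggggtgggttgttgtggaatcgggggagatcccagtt

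TBX3 (ENSG00000135111.16, chromosome 12, 114670254 to 114684164, reverse strand) encodes a T-box repressor that is a β-catenin target in liver tumours. It had 19.7, 20.4 and 20.7 CPM in knockout libraries and 28.5, 27.05 and 29.3 CPM in wild-type libraries. The values within a group lay close together, and the lowest wild-type library was above the highest knockout library. The log2 fold change was -0.47 ± 0.05 (limma adjusted p = 1.5e-06). Its surroundings moved the opposite way. Of 183 other tested genes within 10 Mb, 149 had a positive change, the median was 0.49, and with it taken out the change of TBX3 was -0.96 (limma adjusted p = 1.4e-09). Only 6.56% of those neighbours had a lower change than TBX3.

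GLUL (ENSG00000135821.18, chromosome 1, 182381704 to 182392206, reverse strand) encodes glutamine synthetase, the enzyme that joins ammonia to glutamate and marks the innermost pericentral hepatocytes. It was the most abundant of the 9 genes, at 1059, 1056 and 1076 CPM in knockout libraries and 743, 749 and 768 CPM in wild-type libraries. Both groups were tight, with SDs of 10.6 CPM in the knockout and 13.0 CPM in wild type. The log2 fold change was 0.50 ± 0.03 (limma adjusted p = 2e-10), a ratio of means of 1.41, and it was 0.34 to 0.56 over the alternatives. GLUL and AXIN2, both β-catenin targets in the pericentral zone, had opposite changes. Their log2 ratio was 5.75, 5.69 and 5.76 in knockout libraries and 4.52, 4.42 and 4.47 in wild-type libraries. The difference of means was 1.27 (exact permutation test, two-sided, p = 0.1, the smallest possible and bound to follow).

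**Figure D2:**
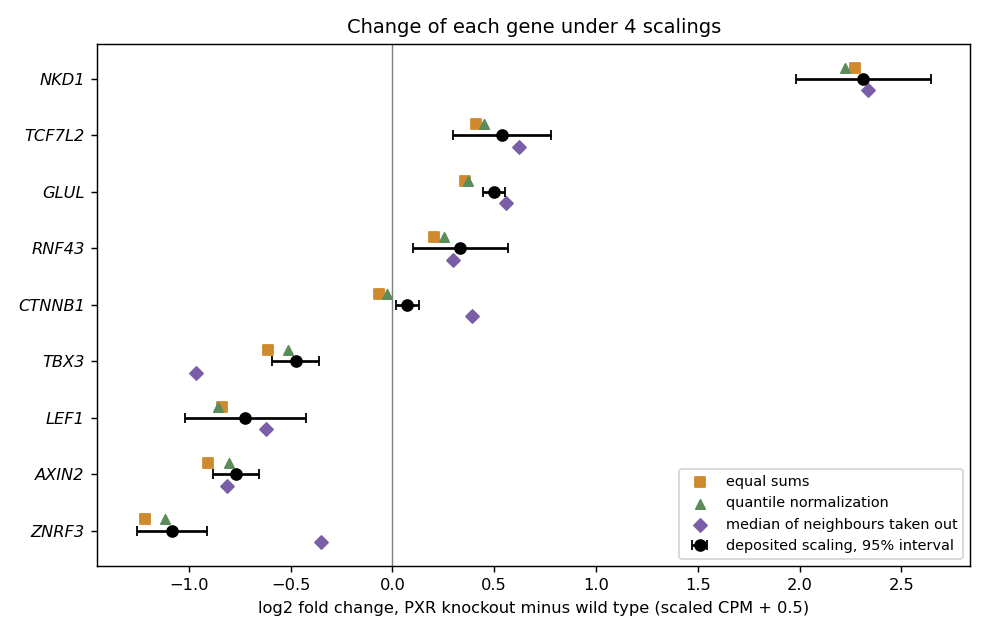
Log2 fold change, PXR knockout minus wild type, on the log2(scaled CPM + 0.5) scale for the 9 genes (rows), with the deposited scaling and its 95% interval (black), equal sums (orange), quantile normalization (green) and the median change of genes within 10 Mb taken out (purple). CTNNB1 lies on both sides of 0, and ZNRF3 moves from -1.08 to -0.35 when its neighbours' median is taken out.

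Per length, the order of the levels was much the same in both groups. In scaled CPM per kb of merged exon, GLUL had 118 ± 1.18 in the knockout and 83.4 ± 1.44 in wild type (SD, n = 3 each). CTNNB1 followed with 47.8 ± 0.38 in the knockout and 45.4 ± 1.20 in wild type, and every other gene was below 7. AXIN2 came next with 3.73 ± 0.09 in the knockout and 6.43 ± 0.27 in wild type, and TBX3 with 3.40 ± 0.09 in the knockout and 4.76 ± 0.19 in wild type. ZNRF3 had 2.03 ± 0.20 in the knockout and 4.37 ± 0.40 in wild type, where its values overlapped those of TBX3. RNF43 (1.10 in the knockout and 0.86 in wild type) and TCF7L2 (1.17 in the knockout and 0.79 in wild type) overlapped within each group. LEF1 had 0.30 in the knockout and 0.55 in wild type, and NKD1 0.11 in the knockout. Merged exon length exceeds that of any single transcript, so these are lower than levels per transcript length.

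**Figure D3:**
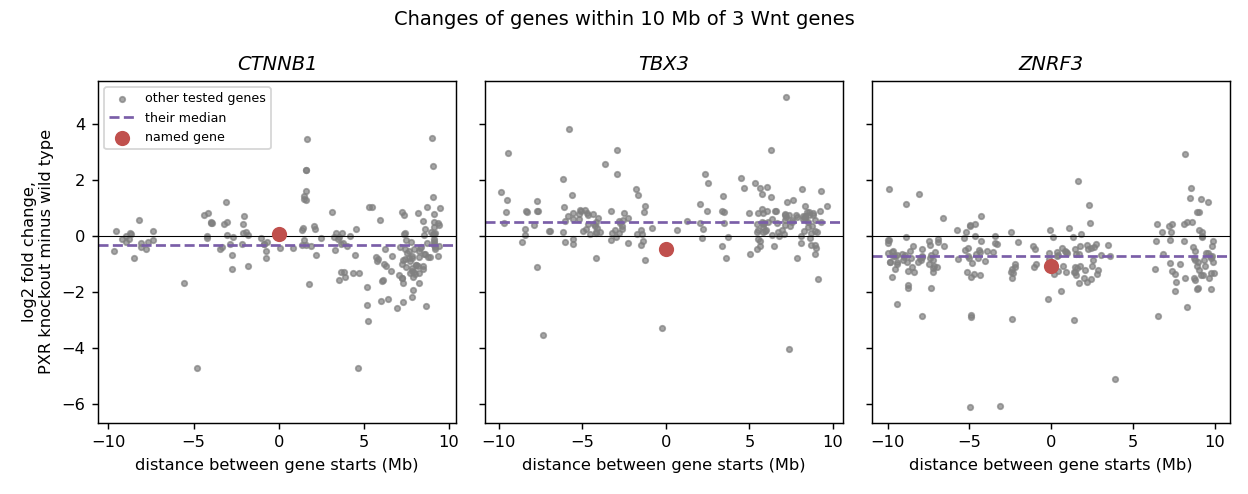
Log2 fold change, PXR knockout minus wild type (linear axis), of all tested genes within 10 Mb of CTNNB1, TBX3 and ZNRF3 (grey) against the distance between gene starts in Mb, with their median (dashed) and the named gene (red). The neighbours of ZNRF3 lie mostly below 0 and those of TBX3 mostly above it, while TBX3 itself is below 0.

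The position of CTNNB1, TBX3 and ZNRF3 was described because their neighbours as a group were shifted by more than 0.3. Near CTNNB1, 123 of 182 tested genes had a negative change (median -0.32), and 71.4% had a lower change than CTNNB1. With that median taken out the change of CTNNB1 was 0.39 (limma adjusted p = 5.3e-09). As for ZNRF3 and TBX3, this p leaves out the spread of the neighbours. For AXIN2, NKD1, RNF43, TCF7L2, LEF1 and GLUL the neighbours' medians lay between -0.10 and 0.04, and their changes without these medians were -0.81, 2.33, 0.30, 0.62, -0.62 and 0.56 in that order.

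Patterns like those of single members were common. The closest to AXIN2 over the 6 libraries, by root mean square distance of log2 values centred on the wild-type mean, were ZNF121 (0.015), CT45A10 (0.023) and RPS10 (0.024), and 624 genes lay within 0.1. The closest to GLUL were ARF3 (0.0084), HUS1 (0.010) and ANXA6 (0.014), with 1033 genes within 0.1. The closest to RNF43 were CATSPER2 (0.031), PA2G4P4 (0.039) and CLPB (0.057), with 134 genes within 0.1. RPS10, CT45A10 and PA2G4P4 belong to sets of near-identical copies, so their levels are uncertain.

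The counts of this and the later lists stand beside 40.3% of all tested genes called upward and 39.6% downward. Upstream of the members, ligand genes were few and of low level. Of 19 Wnt ligand genes listed, 7 were tested, of which 2 rose and 3 fell, with a median log2 change of -0.35 against 0.01 for all tested genes. The split was 2 and 5 with equal sums, with or without small RNA genes, and with quantile normalization, and 3 and 3 (median -0.11) with the neighbours' median taken out. Both genes that rose, WNT2B and WNT10B, passed the filter on low values through the knockout libraries alone and WNT6 through the wild-type libraries alone, so their calls were bound to follow. WNT6 had 0.51 ± 0.13 CPM in the knockout and 3.28 ± 0.34 CPM in wild type, and WNT5A, which mostly acts without β-catenin, had 1.06 ± 0.12 CPM in the knockout and 3.08 ± 0.24 CPM in wild type. WNT10B had 1.70 ± 0.29 CPM in the knockout and 0.60 ± 0.23 CPM in wild type. Of 7 genes for ligand maturation and R-spondins, the 4 tested rose (median 0.72). PORCN, which attaches the lipid that Wnt proteins need for secretion, averaged 13.4 ± 1.39 CPM in the knockout and 6.49 ± 0.64 CPM in wild type. RSPO1 averaged 1.95 ± 0.29 CPM in the knockout and was listed at 0 in all wild-type libraries, so like NKD1 it passed the filter through the knockout alone. RSPO2 had 3.14 ± 0.53 CPM in the knockout and 2.17 ± 0.35 CPM in wild type (log2 0.44, limma adjusted p = 0.014), a call lost with equal sums (adjusted p = 0.055), equal sums without small RNA genes (adjusted p = 0.071) and quantile normalization (adjusted p = 0.074). It was also lost without knockout library 2 (adjusted p = 0.067), knockout library 3 (adjusted p = 0.058) or wild-type library 2 (adjusted p = 0.064).

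Receptor genes were mixed. Of 19 listed, 15 were tested, and 8 rose and 6 fell (median 0.24), against 7 and 7 with equal sums and 6 and 7 with equal sums without small RNA genes. The Frizzled genes FZD1 and FZD7 diverged, FZD1 with 26.6 ± 0.64 CPM in the knockout and 8.56 ± 0.49 CPM in wild type, and FZD7 with 2.64 ± 0.32 CPM in the knockout and 9.86 ± 0.76 CPM in wild type. KREMEN1, a co-receptor of Dickkopf inhibitors encoded on chromosome 22 like ZNRF3, had 10.1 ± 0.77 CPM in the knockout and 26.7 ± 1.98 CPM in wild type, and genes within 10 Mb of it had a median change of -0.73. LGR4, the R-spondin receptor related to LGR5, was named after its values were seen and had 127 ± 4.58 CPM in the knockout and 54.0 ± 1.40 CPM in wild type. Of 13 listed inhibitors 3 were tested and 2 rose. DKK1, a secreted blocker of LRP co-receptors and itself a Wnt target, averaged 204 ± 2.72 CPM in the knockout and 133 ± 6.87 CPM in wild type, and SFRP4, which binds Wnt proteins, averaged 3.56 ± 0.16 CPM in the knockout and 1.01 ± 0.22 CPM in wild type.

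Genes of the cytoplasmic relay changed little in size. All 14 were tested, 4 rose and 7 fell (median -0.08). The split was 2 and 9 with equal sums (median -0.22) and with equal sums without small RNA genes (median -0.24), and 2 and 8 (median -0.19) with the neighbours' median taken out. The largest changes were falls of TNKS, the tankyrase that marks axin for breakdown (log2 -0.58 ± 0.04), AXIN1 (-0.43 ± 0.05) and the kinase gene GSK3A (-0.31 ± 0.06). Of 12 tested nuclear partners 6 rose and 5 fell, and the median of 0.06 turned to -0.07 with equal sums. The co-repressor genes CTBP2 and TLE3 fell, CTBP2 to 1.93 ± 0.15 CPM in the knockout, against 25.0 ± 0.40 CPM in wild type (uncertain, as pseudogene copies of it are annotated), and TLE3 to 11.7 ± 0.47 CPM in the knockout, against 24.7 ± 1.49 CPM in wild type. PYGO1, a co-activator of β-catenin, averaged 4.04 ± 0.10 CPM in the knockout and 7.65 ± 0.62 CPM in wild type. Of 10 other common Wnt target genes tested, 6 rose and 3 fell (median 0.29), and 4 rose and 4 fell with equal sums. CD44 had 72.6 ± 1.17 CPM in the knockout and 22.8 ± 1.58 CPM in wild type. The decoy receptor gene BAMBI had 36.4 ± 1.03 CPM in the knockout and 13.5 ± 0.45 CPM in wild type, and BMP4 had 3.58 ± 0.45 CPM in the knockout and 1.75 ± 0.02 CPM in wild type. SP5, among the most direct β-catenin targets and named after its values were seen, had 2.05 ± 0.04 CPM in the knockout and 3.32 ± 0.47 CPM in wild type (log2 -0.58, limma adjusted p = 0.00098), a call lost with its neighbours' median taken out (log2 -0.27, adjusted p = 0.061).

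At the cell junction, where β-catenin binds cadherins, 4 of 5 tested genes rose and 1 fell (median 0.69). Over all tested genes 79.9% were called. CDH1, the epithelial cadherin, averaged 49.3 ± 1.17 CPM in the knockout and 1.79 ± 0.55 CPM in wild type. JUP, or γ-catenin, averaged 21.6 ± 0.94 CPM in the knockout and 8.43 ± 0.80 CPM in wild type. CDH2, the neural cadherin, fell to 105 ± 2.26 CPM in the knockout, against 171 ± 4.72 CPM in wild type.

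**Figure D4:**
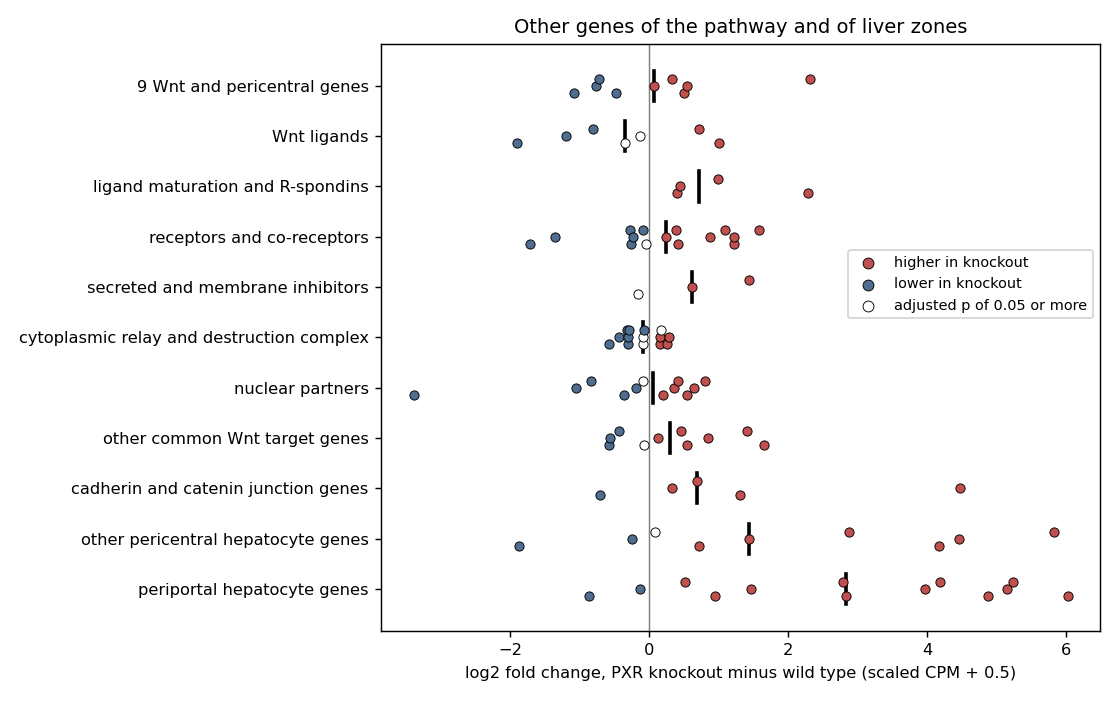
Log2 fold change, PXR knockout minus wild type, of the 9 genes and of the tested genes of 10 lists (rows), with red for genes higher in the knockout, blue for lower and white for an adjusted p of 0.05 or more; the black bar is the median. Both liver-zone lists hold genes on either side of 0, with AVPR1A at -1.88 and SDS at -0.87 the lowest, and 5 pericentral and 4 periportal genes on the right passed the filter on low values through the knockout alone.

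Other genes of the liver zones had changes in both directions. Of 9 other pericentral genes tested, 6 rose and 2 fell, but 5 of the 6 (CYP2E1, CYP7A1, RGN, SLC13A3 and NR1I3) passed the filter on low values through the knockout libraries alone, so their rise was bound to follow. RGN, for regucalcin, averaged 32.0 ± 0.80 CPM in the knockout and 0.07 ± 0.02 CPM in wild type. CYP3A4, the main drug-oxidising P450, averaged 257 ± 4.80 CPM in the knockout and 13.7 ± 0.39 CPM in wild type. CYP7A1, for the first step of bile acid synthesis, averaged 11.8 ± 0.14 CPM in the knockout and had 3 reads in all wild-type libraries together. CYP2E1 and AVPR1A were named after their values were seen. CYP2E1, a classic pericentral P450 gene, averaged 3.71 ± 0.50 CPM in the knockout and 0.08 ± 0.10 CPM in wild type, whereas AVPR1A, a vasopressin receptor gene, averaged 34.0 ± 0.93 CPM in the knockout and 126 ± 5.73 CPM in wild type. Of 13 periportal genes tested, 11 rose and 2 fell, and ARG1, OTC, PCK1 and G6PC, 4 of the 11, likewise passed through the knockout alone. The median log2 changes were 1.44 for the pericentral and 2.83 for the periportal genes. Counts and medians of both zones were the same without the filter, but they include the genes that passed through the knockout alone. With the stricter filter (mean above 5 CPM), 3 of 6 pericentral genes rose and 2 fell (median 2.13). Of 9 periportal genes, 8 then rose and 1 fell (median 2.83). The summed level of the pericentral genes was 430 to 440 CPM in knockout libraries and 246 to 254 CPM in wild-type libraries. CYP3A4, at 257 CPM, was the largest part of the knockout sum, and AVPR1A, at 126 CPM, of the wild-type sum. For the periportal genes, ALB among them, it was 33671 to 34633 CPM in knockout libraries and 1439 to 1498 CPM in wild-type libraries. ARG1, for arginase, averaged 34.8 ± 1.33 CPM in the knockout and had 3 reads in all wild-type libraries together, and TTR, for transthyretin, averaged 125 ± 1.97 CPM in the knockout and 3.05 ± 0.36 CPM in wild type. ALB, listed with the periportal genes, was the third gene taken by rule, with a log2 change of 5.24 ± 0.04. The difference between the zones was not tested.

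Markers of other liver cell types moved in both directions, and their part in the changes above was not tested. Of them PECAM1, KRT7 and PDGFRB passed the filter through the wild-type libraries alone. Of 9 endothelial markers, 2 had values. KDR averaged 218 ± 3.93 CPM in the knockout and 53.3 ± 0.20 CPM in wild type, and PECAM1 averaged 0.35 ± 0.20 CPM in the knockout and 1.58 ± 0.06 CPM in wild type. Their summed level was 215 to 222 CPM in knockout libraries and 54.8 to 55.1 CPM in wild-type libraries. Of 8 stellate and mesenchymal markers tested, 4 rose and 4 fell (median 0.06, and -0.06 with equal sums), with DES, ACTA2 and DCN at log2 changes of -3.50, 2.58 and 2.40 and a summed level of 407 to 423 CPM in the knockout and 111 to 115 CPM in wild type. Of 4 cholangiocyte markers 2 rose and 2 fell. SPP1, KRT19 and KRT7 had log2 changes of -3.12, 1.58 and -0.58, and the summed level was 373 to 399 CPM in the knockout and 489 to 515 CPM in wild type. Of 7 macrophage and leukocyte markers 3 had values, 2 rose and 1 fell. CD68, LYZ and CD14 had log2 changes of 0.74, 0.34 and -0.31, and the counts became 1 and 1 with equal sums and 0 and 1 with the neighbours' median taken out. CD68 lost its call with that median taken out (0.21, limma adjusted p = 0.066). LYZ lost its call with equal sums (adjusted p = 0.15), equal sums without small RNA genes (adjusted p = 0.18) and quantile normalization (adjusted p = 0.18). It was also not called with voom weights (adjusted p = 0.063) or with the neighbours' median taken out (adjusted p = 0.7). CD14 lost its call with a pseudocount of 0.1 (adjusted p = 0.054), the replicate block (adjusted p = 0.061) and voom weights (adjusted p = 0.056). Single libraries also changed the calls of LYZ and CD14. Without knockout library 1, knockout library 3, wild-type library 1 or wild-type library 2 the limma adjusted p of LYZ was 0.16, 0.052, 0.096 and 0.07 in that order. For CD14 it was 0.13, 0.082, 0.067 and 0.094 without knockout library 1, knockout library 2, wild-type library 2 and wild-type library 3. The summed level of these markers was 22.7 to 24.1 CPM in the knockout and 13.6 to 16.8 CPM in wild type. No marker with values was at 0 in all 6 libraries.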

How the data were processed

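RNA of HepaRG cells was measured in 3 libraries labelled PXR knockout and 3 wild-type libraries, grouped and numbered by their titles. Per the labels' protocols, total RNA went into a stranded mRNA kit; the design text states paired-end reads. As tools, limma, edgeR, Bowtie2, Trim Galore and FastQC appear in the submitters' processing notes beside hg38, and sample titles begin with RSEM; the sources used here give no versions, annotation release or gene filter. The deposited values are linear, a signal already normalized, although the table is named for log2 CPM, and the authors had applied a factor per library, so columns do not share a sum; they are called scaled CPM here. Values stepped in hundredths of a read, with 1 read worth 0.031 to 0.082 CPM, which gave the estimated depths. At most 76.4% of values under 20 reads were whole within 0.006 of a read, so no count test was used.

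Of 16673 rows, 14 second pseudoautosomal copies were left out and 21 date-like symbols restored. Coordinates and exon lengths came from GENCODE 29 on GRCh38 (16608 identifiers matched). Genes above 1 scaled CPM in at least 3 of the 6 libraries were tested on log2(scaled CPM + 0.5) with limma 3.58.1 in R 4.3.3 (group as the only term, moderated variances with a trend on the mean level, two-sided, Benjamini-Hochberg over all tested genes, threshold 0.05). That scale understates the change of low genes. The fit was tested on simulated data with few changed genes, which does not cover data where 79.9% of tested genes passed. Replicates differed by more than sampling noise (mean chi-square per gene 2.23 to 9.74), so each counted once. Alternatives covered the pseudocount, filter, scaling, neighbours' median, replicate block, variance model and leaving out each library. The neighbours' median was taken out as a fixed number, so p-values of that alternative leave out the spread of the neighbours.

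The members and lists were chosen with earlier results of these data known. Named were all members, up to 3 called genes per list with the largest absolute change, NR1I2 and the nearest patterns of AXIN2, RNF43 and GLUL; exceptions are stated where they occur. Figures and ratios used Python 3.11.15 with scipy 1.17.1 and matplotlib 3.10.9.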

Additional observations from a re-analysis of the deposited data

How the results depend on the processing

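Over 17 alternatives, 144 of 151 values of the 9 genes kept their direction and their side of the threshold. CTNNB1 reversed with equal sums (-0.064), with equal sums without small RNA genes (-0.083) and with quantile normalization (-0.025). It was called lower with both equal-sum scalings and not called with quantile normalization. The call of CTNNB1 was also lost without knockout library 3 or wild-type library 1. RNF43 lost its call with both equal-sum scalings. Of 752 values of the other named genes, 728 were unchanged in this sense, 23 lost the call and LYZ reversed with the neighbours' median taken out (-0.059). The cause was not tested. The number of the 9 genes called was 8 with each of the 3 other scalings of whole libraries and 8 to 9 when a library was left out; it was 7 with the stricter filter (mean above 5 CPM), which leaves no value for LEF1 and NKD1. All gene calls ran from 12444 to 12887 with a library left out, and called genes of the fixed lists from 93 to 95. Same-numbered libraries did not deviate together more than others (correlations of -0.05, -0.05 and 0.09, against -0.07 to 0.10 for libraries of different numbers). No pairing by number was seen, which does not show that same-numbered libraries were prepared apart. With the replicate number as a block, 12916 genes and all 9 members were called, against 12960 and 9 without it. Depth limits NKD1 and LEF1 most, with at most 74 estimated reads in a library.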
